A study of Mus musculus with 6 samples.

Results

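Glycolysis and the response to low oxygen share a set of genes, and 36 of them were followed here in 32D cells that carried the Nup98::Nsd1 fusion gene. They were 18 glycolytic enzymes, 6 transporters and regulators of glycolytic flux, and 12 other genes of the hypoxia response. A probe set, a group of short oligonucleotides that reads 1 transcript on the array, was a member if the platform annotation gave it a single symbol and that symbol was among the 36. This left 78 probe sets of 33 genes, out of 45101 probe sets of 18194 single symbols on the array. Gpi1 and Eno1 had no such probe set, and those of Bnip3l were shared with its pseudogene Bnip3l-ps. Gapdh was read alone only by the 3 control probe sets of the array, which were kept out of the tests. Of the other 75 probe sets, 62 were tested, namely those that a detection test called Present on every array of 1 group or both, and they covered 28 genes. Aldoc, Eno2, Ldhb and Slc16a3 had no probe set that met this filter. Each tested gene was represented by its brightest probe set, and 27 of the 28 were Present throughout; Ankrd37 was Present on 2 of 3 Nup98::Nsd1 arrays.

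The cells were 32D, a myeloid progenitor line from bone marrow of C3H/HeJ mice infected with Friend leukemia virus, which needs interleukin-3 for growth. In the 3 control samples the cells were mock-transduced and are labelled MSCVpuro, a retroviral vector with a puromycin resistance gene. In the 3 others they were transduced with Nup98::Nsd1, a fusion found in acute myeloid leukaemia. The labels name no clone, passage or separate culture, so the p-values rest on the spread among these samples, which may be technical.

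In glycolysis, glucose enters through facilitative transporters, is trapped by hexokinase, split into triose phosphates and converted to pyruvate, which lactate dehydrogenase reduces to lactate for export. The hypoxia-inducible factor HIF is a pair of Hif1a, whose protein is destroyed in the presence of oxygen, and the stable partner Arnt. Prolyl hydroxylases of the Egln family mark Hif1a for that destruction. When oxygen is low HIF binds a short core sequence, ACGTG or GCGTG, near its target genes, and most glycolytic enzyme genes are among these targets. Hif1a is controlled mainly at the protein level, which these arrays do not measure.

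The 250 bases before the start of transcription of 5 members are shown because they hold this core and belong to genes with different measured changes. Pgam1, Ldha and Egln3 were lower in Nup98::Nsd1 cells, and Ddit4 and Egln2 were higher. Capitals mark each ACGTG or GCGTG on either strand, so that CACGT and CACGC are the same core read from the other strand, and CACGTG counts as 2 overlapping matches. The sequences are RefSeq's, of build GRCm38.p6, in the gene's own direction and from the first start listed for the gene. They lie at chr19:41911621-41911870 on the plus strand for Pgam1, at chr7:46845554-46845803 on the plus strand for Ldha, and at chr12:54203875-54204124 on the minus strand for Egln3. Those of Ddit4 and Egln2 lie on the minus strand at chr10:59951771-59952020 and chr7:27166803-27167052.
Pgam1: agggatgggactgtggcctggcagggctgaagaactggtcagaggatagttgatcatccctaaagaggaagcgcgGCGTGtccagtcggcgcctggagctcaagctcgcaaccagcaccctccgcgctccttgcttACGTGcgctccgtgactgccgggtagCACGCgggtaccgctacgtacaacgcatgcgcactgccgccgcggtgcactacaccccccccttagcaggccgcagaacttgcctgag
Ldha: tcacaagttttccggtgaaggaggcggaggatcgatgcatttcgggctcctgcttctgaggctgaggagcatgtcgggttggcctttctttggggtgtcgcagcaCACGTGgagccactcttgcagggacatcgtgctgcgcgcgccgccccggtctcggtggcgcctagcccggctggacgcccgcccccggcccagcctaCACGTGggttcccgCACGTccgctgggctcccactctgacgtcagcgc
Egln3: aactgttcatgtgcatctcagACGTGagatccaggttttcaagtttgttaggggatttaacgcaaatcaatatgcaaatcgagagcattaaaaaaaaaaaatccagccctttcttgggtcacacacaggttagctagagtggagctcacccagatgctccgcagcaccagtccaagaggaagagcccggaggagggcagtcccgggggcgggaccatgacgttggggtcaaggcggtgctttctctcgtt
Ddit4: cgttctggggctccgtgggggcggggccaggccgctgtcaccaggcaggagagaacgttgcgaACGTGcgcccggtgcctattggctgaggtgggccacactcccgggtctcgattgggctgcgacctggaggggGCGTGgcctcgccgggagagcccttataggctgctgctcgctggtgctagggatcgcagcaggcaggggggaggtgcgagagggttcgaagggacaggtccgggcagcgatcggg
Egln2: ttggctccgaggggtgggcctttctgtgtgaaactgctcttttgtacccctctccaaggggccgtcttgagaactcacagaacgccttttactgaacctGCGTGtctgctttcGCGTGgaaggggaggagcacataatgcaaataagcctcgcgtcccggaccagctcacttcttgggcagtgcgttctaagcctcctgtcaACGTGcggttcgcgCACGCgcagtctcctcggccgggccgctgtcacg

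The core was common before members of every kind. RefSeq's table listed starts for 33 of the 36 members, in 48 windows, and 39 windows (81.2%) held it, against 38.6% of 32841 windows over all genes. The median GC content was 60.4% in member windows and 52.4% in all windows, and the core itself holds a CG pair. By gene, it was found before 13 of the 14 members called lower, 4 of the 4 called higher that had an entry, and 8 of the 8 that were not called. Over all 27018 genes, the core was found in any window of 41.5%. Because 30 of the 33 members with an entry held it, its presence could not separate members that rose from members that fell. A match is only these letters, not a site of binding.

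Most of the tested glycolytic enzymes were lower in Nup98::Nsd1 cells while the other hypoxia genes went both ways. Of 12 tested enzymes, 8 (66.7%) fell and 0 rose, where 29.5% of all 9641 tested genes fell and 42.9% rose, 72.3% in all. At an unadjusted p under 0.05 in limma, 8 fell and 0 rose as well. Of the 11 tested other hypoxia genes, 5 (45.5%) rose and 3 (27.3%) fell, shares near those of all genes. Of the 5 tested transporters and flux regulators, 1 rose and 3 fell. The enzymes' median log2 fold change was -0.22, and 11 of the 12 lay below 0.12, the median of all tested genes, which was the value of Hk3. For the other hypoxia genes the median fell on Bnip3, at -2.48e-05, with 5 genes between 0.71 and 1.44 and 5 between -0.82 and -0.13. The difference of the class medians was -0.22. Groups of arrays did not overlap for 20 of 28 members (71.4%), against 75.1% of all genes. The members were chosen with results of these arrays known, and the classes were compared by counts and medians only.

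**Figure D1:**
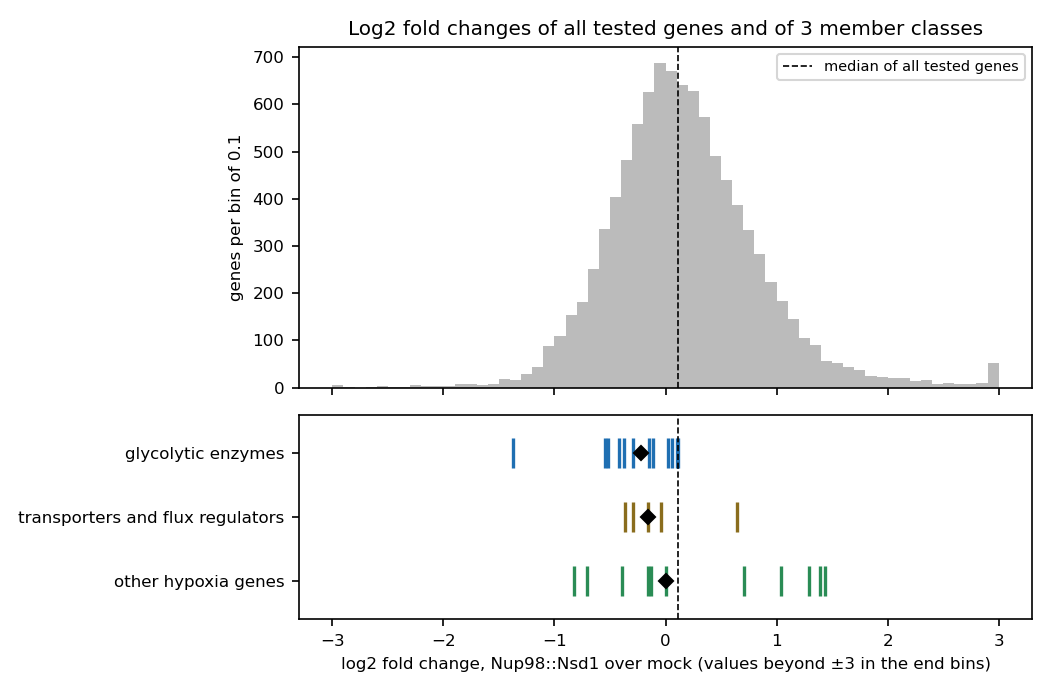
Log2 fold changes, Nup98::Nsd1 over mock, of all 9641 tested genes as a histogram (upper panel, genes per bin) and of the tested members by class (lower panel, a tick per gene, a diamond at the class median, the median of all genes dashed). The enzymes lie between -1.37 and 0.12, and the other hypoxia genes form a higher set from 0.71 to 1.44 and a lower set at or below 0.

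Most tested genes differed between the groups, and these counts moved with the scaling of the arrays. Of the calls among members, 30.0% were higher, and this share was 35.0% after quantile normalization, 30.0% after centring on the 75th percentile, 24.0% after centring on the median and 21.4% when the arrays were scaled to the hybridization controls. Over all genes the share of higher calls was 59.3%, and 52.3%, 60.5%, 44.9% and 29.5% under those settings in turn. The median log2 fold change of all genes moved from 0.12 to 0.01 with quantile normalization, to -0.05 with median centring and to -0.25 with hybridization control scaling. Enzymes called lower numbered 6, with Hk3 called higher, after quantile normalization, then 8, 9 and 12 under the other settings in that order, where 33.1%, 28.6%, 39.1% and 50.4% of all genes were called lower. The 5 other hypoxia genes called higher remained 5 under each of these, and those called lower numbered 4, 3, 6 and 6. The difference of the class medians was -0.20 after quantile normalization and -0.22 under the other scalings, where centring or scaling shifts all genes alike.

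**Figure D2:**
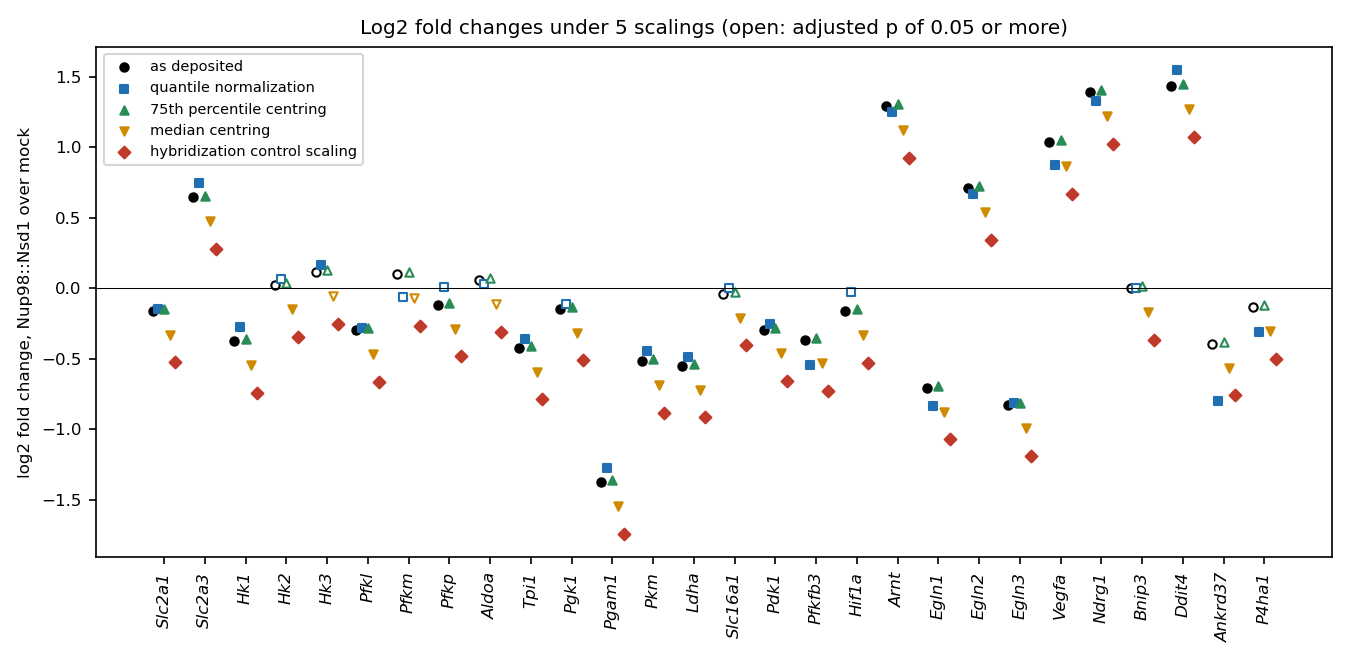
Log2 fold changes of the 28 tested members under the scaling as deposited and 4 others, with open symbols where the adjusted p was 0.05 or more. Genes near 0, such as Hk2, Hk3, Pfkm and Aldoa, change sign between scalings, while Pgam1 stays between -1.74 and -1.27 and Ddit4 between 1.07 and 1.55.

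Several measures of the whole series moved with the groups. Present calls made up 45.1% to 45.9% of probe sets on mock arrays and 47.6% to 48.2% on Nup98::Nsd1 arrays. The ratio of 3' to 5' control signal, a sign of RNA and labelling quality, was 0.76 ± 0.016 in mock and 0.816 ± 0.024 in Nup98::Nsd1 samples for Gapdh, itself a member, and 1.18 ± 0.03 and 1.47 ± 0.026 for Actb (mean ± SD, n = 3 each). Of 10 markers of myeloid progenitors, 9 were Present on all mock and 8 on all Nup98::Nsd1 arrays, with Kit Absent on all 6. Their summed signal was 52302 to 54943 in mock and 38199 to 39145 in Nup98::Nsd1 samples, while that of 5 megakaryocyte markers was 3584 to 3735 and 10061 to 10327, and that of 6 monocyte and macrophage markers 5684 to 5916 and 8910.4 to 9105. Gp1bb of the megakaryocyte markers and Cd14 of the monocyte and macrophage markers were Absent on all 6 arrays. The 4 erythroid markers on the array summed to 479 to 556 and 374 to 418. Among them 2 were Present on all mock and 1 on all Nup98::Nsd1 arrays, and Hba-a1 and Alas2 were Absent on all 6. The 4 B lymphoid markers on the array summed to 377 to 448 and 345 to 449, and 3 of them were Absent on all 6. Of 5 fibroblast and 4 T lymphoid markers 0 were Present on all arrays of a group. The part of these shifts in the results was not tested, and in bulk RNA fewer cells that express a gene and less RNA per cell cannot be told apart.

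The glucose transporters moved in opposite directions. Slc2a3, the high-affinity transporter GLUT3, gave signals, in the order of the replicate numbers, of 6335, 6441 and 6228 on the mock arrays and 9972, 10535 and 9231 on the Nup98::Nsd1 arrays, all Present. Every Nup98::Nsd1 array was above every mock array, a rise of 1.56-fold (log2 fold change 0.64, SE 0.049, adjusted p = 3.75e-07 by limma). It stayed called higher, at 0.47 after median centring and 0.28 when scaled to hybridization controls. Of its other 3 probe sets, 2 also rose, to log2 fold changes of 0.74 and 0.22, and the dimmest did not pass at 0.03 (adjusted p = 0.836). The larger rises, 0.64 and 0.74, were at probe sets with the suffixes _s_at and _x_at, whose probes may match other transcripts. Slc2a1, the widely expressed transporter GLUT1, read 1860.4, 1806 and 1836 in mock and 1691, 1707 and 1535 in Nup98::Nsd1 cells at its brightest probe set. The groups lay apart by a small step (log2 fold change -0.16, SE 0.054, adjusted p = 0.0207), and the call was lost without mock replicate 1 (-0.15, adjusted p = 0.0570) or Nup98::Nsd1 replicate 3 (-0.11, adjusted p = 0.0778), and with no intensity trend in the fit (adjusted p = 0.0579). Both other Slc2a1 probe sets fell further, by 0.44 and 0.47 on the log2 scale (adjusted p = 7.26e-05 and 1.42e-05).

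Hexokinases phosphorylate glucose on entry, and only Hk1 of the 3 passed the test. The signals of Hk1, which binds to mitochondria and is broadly expressed, were 3562, 3587 and 3331 in mock and 2692, 2611 and 2775 in Nup98::Nsd1 cells, 1.3-fold lower (log2 fold change -0.38, SE 0.047, adjusted p = 2.24e-05). Its second probe set fell more, from 2069.7 ± 185 to 1112 ± 59.0 (mean ± SD, n = 3 each; log2 fold change -0.89, adjusted p = 4.78e-07). Hk2, the form that HIF is known to induce, read 2165, 2225 and 2141 in mock and 2205, 2178 and 2248 in Nup98::Nsd1 cells. Those ranges overlapped and the log2 fold change was 0.02 (adjusted p = 0.671). With median centring and hybridization control scaling Hk2 turned to -0.15 and -0.34, both past the threshold. Hk3, the hexokinase of myeloid cells, had 2 probe sets on either side of 0, at 0.12 (adjusted p = 0.0879) and -0.07 (adjusted p = 0.294). The brighter passed without mock replicate 3 (0.155, adjusted p = 0.0373) or without Nup98::Nsd1 replicate 3 (0.16, adjusted p = 0.0338), and also after quantile normalization (0.17, adjusted p = 0.0252) and with array quality weights (0.13, adjusted p = 0.0442). With hybridization control scaling it passed as lower (-0.25, adjusted p = 0.00282).

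Phosphofructokinase, which commits sugar to glycolysis, is built from 3 kinds of subunit that behaved unequally. Pfkl, the liver-type subunit, went from 2066, 2066 and 2026 in mock to 1666, 1728 and 1623 in Nup98::Nsd1 cells, without overlap (log2 fold change -0.30, SE 0.047, adjusted p = 0.000154). A second Pfkl probe set fell by 0.49 on the log2 scale (adjusted p = 3.51e-05), and the dimmest was at -0.16 (adjusted p = 0.267). Pfkm, the muscle type, did not pass at 0.10 (adjusted p = 0.237). The probe sets of Pfkp, the platelet type, disagreed most among all members. The brightest read 3837, 3965 and 3796 in mock and 3669, 3505 and 3521 in Nup98::Nsd1 cells (log2 fold change -0.12, SE 0.042, adjusted p = 0.0262), a call lost without mock replicate 2 (-0.10, adjusted p = 0.107), Nup98::Nsd1 replicate 2 (-0.10, adjusted p = 0.0763) or Nup98::Nsd1 replicate 3 (-0.11, adjusted p = 0.0660). The call was also lost with no filter on detection (adjusted p = 0.0558), with no intensity trend in the limma fit (adjusted p = 0.0804) and after quantile normalization, where the value was 0.01. The next read 1586, 1631 and 1506 and then 758, 824 and 829, a level 1.96-fold lower (log2 fold change -0.97, SE 0.061, adjusted p = 7.28e-08). The dimmest, at 0.40 (adjusted p = 0.0584), did not pass, so that the probe sets of Pfkp spanned 1.37 on the log2 scale, against a median span of 0.47 over the 4711 genes with several tested probe sets.

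The aldolase step and the triose step after it differed from each other. Aldoa, the main aldolase outside liver and brain, was read by 5 probe sets, all of a design (suffix _x_at) in which some probes may match other transcripts. Its brightest gave 18585, 17509.7 and 18381 in mock and 18474, 19026 and 19248 in Nup98::Nsd1 cells, overlapping groups with a log2 fold change of 0.06 (adjusted p = 0.206). Of the other 4, 1 rose, at 0.20 (adjusted p = 0.00148), and 3 did not pass, between -0.10 and 0.08. The brightest probe sets of Hk3, Tpi1, Pgk1 and Ndrg1 also carry the suffix _x_at, as does a dimmer one each of Slc2a3 and Pgk1. The suffix _s_at, whose probes may also match other transcripts, is carried by the brightest probe set of Slc2a3 and by dimmer ones of Arnt and Ndrg1. Aldoc, the brain form, was Present on no array at either probe set. Tpi1, which interconverts the triose phosphates, read 13252, 13664 and 14033 in mock and 10069, 10115 and 10381 in Nup98::Nsd1 cells. No Nup98::Nsd1 array reached a mock array, and the level was 1.34-fold lower (log2 fold change -0.42, SE 0.039, adjusted p = 1.77e-06). Its 2 other probe sets gave log2 fold changes of -0.45 and -0.32, the closest agreement among the members with 3 or more tested probe sets, with a span of 0.13.

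Gapdh, the next enzyme and a common reference gene, could be described but not tested. Its control probe set for the 5' end gave 27739, 30354 and 33153 on mock arrays and 29864, 28064 and 29137 on Nup98::Nsd1 arrays. At the 3' end the values were 21271, 23388 and 24593 and 23852, 23658 and 23516. Both overlapped between groups, and the middle probe set, at 25086 to 28194 in mock and 23807 to 25038 in Nup98::Nsd1 samples, did not overlap. A bright probe set shared by Gapdh, a pseudogene of it and other loci gave 24178 ± 2909 and 26972 ± 827 (mean ± SD, n = 3 each), a log2 difference of 0.16 (adjusted p = 0.0621).

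The largest fall of all members was that of Pgam1, phosphoglycerate mutase, which moves the phosphate of 3-phosphoglycerate late in the pathway. Its single probe set read 10928, 11636 and 11908 in mock and 4511, 4248 and 4531 in Nup98::Nsd1 cells. Every mock array was far above every Nup98::Nsd1 array, and the level was 2.59-fold lower (log2 fold change -1.37, SE 0.046, adjusted p = 7.48e-10). Pgam1 was the only enzyme called lower by at least 1.5-fold at its brightest probe set, where 10.1% of all tested genes were. Ldha joined it without mock replicate 1, and Hk1 did when the probe sets of a gene were averaged. With median centring the enzymes lower by that much were 4, with Ldha, Pkm and Tpi1, and with hybridization control scaling 6, with Hk1 and Pfkl as well, against 16.7% and 27% of all genes. Pgk1, phosphoglycerate kinase, which makes ATP in the step before, fell at all 3 of its probe sets by unequal amounts. The brightest went from 17896, 17895 and 17088 to 16030.3, 15495 and 16278 (log2 fold change -0.15, SE 0.04, adjusted p = 0.00634) and stood at -0.11 (adjusted p = 0.0564) after quantile normalization. The others gave -0.46 and -0.84, the last from 13599.8 ± 763 to 7640.0 ± 1117. Eno2, the neuronal enolase, was Present on no array at its single probe set.

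Pkm and Ldha, at the end of the pathway, fell by similar amounts at a single probe set each. Pkm, pyruvate kinase, read 12546, 12815 and 13307 in mock and 9038, 8847 and 9147 in Nup98::Nsd1 cells, 1.43-fold lower (log2 fold change -0.52, SE 0.039, adjusted p = 3.52e-07). Ldha, the lactate dehydrogenase subunit that favours lactate formation, read 15492, 16420.2 and 17457 in mock and 11168, 11011 and 11542 in Nup98::Nsd1 cells, 1.46-fold lower (log2 fold change -0.55, SE 0.048, adjusted p = 1.06e-06). In neither did the groups overlap. Ldhb, the subunit that favours pyruvate, was not tested: its brightest probe set, Present on 2 arrays of each group, read 219 to 237 in mock and 199.5 to 212 in Nup98::Nsd1 cells. The lactate exporter Slc16a1 (MCT1) was level, at 9558, 9939.8 and 10539 and then 9951, 9611 and 9680.1 (log2 fold change -0.04, adjusted p = 0.462), and was called lower with median centring (-0.21) and hybridization control scaling (-0.40). Slc16a3, the exporter MCT4 that hypoxia is known to induce, was Present on no array.

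The flux regulators fell with the enzymes. Pfkfb3, which makes the activator fructose 2,6-bisphosphate, read 654, 559.9 and 633 in mock and 502, 443 and 490.2 in Nup98::Nsd1 cells (log2 fold change -0.36, SE 0.089, adjusted p = 0.0032). Its second probe set fell by 0.51 on the log2 scale (adjusted p = 0.00506). That probe set was Present on 3 mock and 2 Nup98::Nsd1 arrays, so it was tested only through the group where it was high. Its fall is thus no separate support. Pdk1, the kinase that closes pyruvate dehydrogenase, was the member whose probe sets were called in both directions, as 12.7% of the 4711 genes with several tested probe sets were. The brightest went from 2388, 2262 and 2187 to 1884, 1963 and 1740.2 (log2 fold change -0.29, SE 0.057, adjusted p = 0.000713) and the next from 1106, 1223 and 1112 to 877, 832 and 856 (-0.42). The dimmest tested one rose from 313, 292 and 293 to 372, 354 and 355 (log2 fold change 0.27, SE 0.095, adjusted p = 0.0257).

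**Figure D3:**
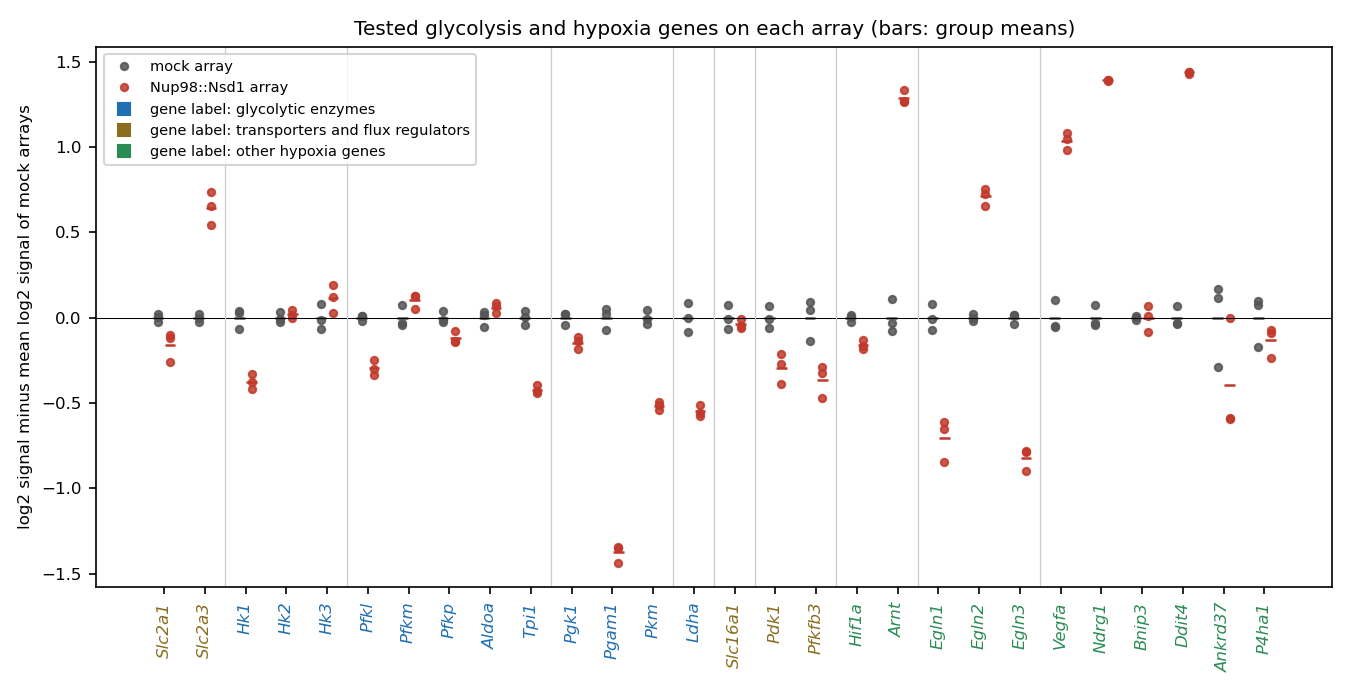
Log2 signal of each of the 28 tested members on each array, minus the mean of its 3 mock arrays, with a point per array, bars at group means and gene labels coloured by class, in the order of the pathway. Nup98::Nsd1 points (red) lie below the mock points (grey) for most enzymes, lowest for Pgam1, and split upward and downward among the other hypoxia genes.

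The subunits of HIF moved in opposite directions. Arnt, the stable partner, had its brightest probe set at 794, 769 and 876 in mock and 2049, 1959.7 and 1950.1 in Nup98::Nsd1 cells. The groups were far apart, a rise of 2.45-fold (log2 fold change 1.29, SE 0.061, adjusted p = 8.56e-09). A second Arnt probe set rose by 0.73 on the log2 scale (adjusted p = 8.98e-06), and 2 dimmer ones did not pass, at 0.17 (adjusted p = 0.193) and 0.41 (adjusted p = 0.156). Hif1a, the oxygen-regulated subunit, fell at 3 of 3 tested probe sets. The brightest gave 7474, 7635 and 7686 in mock and 6776, 6933 and 6689 in Nup98::Nsd1 cells (log2 fold change -0.16, SE 0.038, adjusted p = 0.00253), which was -0.02 after quantile normalization and no longer past the threshold (adjusted p = 0.547). The others fell by 0.33 and 0.71 on the log2 scale, the last from 1047, 1046 and 1030.3 to 594, 692 and 626.

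Of the Egln oxygen sensors, Egln1 and Egln3 fell and Egln2 rose, each without overlap of the groups. Egln1 (PHD2), the main hydroxylase of Hif1a, read 1005, 907 and 946 in mock and 605, 623 and 529 in Nup98::Nsd1 cells, 1.63-fold lower (log2 fold change -0.70, SE 0.079, adjusted p = 9.34e-06), and its second probe set was 1.95-fold lower. Egln3 (PHD3) read 2267, 2355 and 2351 and then 1245, 1354 and 1344, 1.77-fold lower (log2 fold change -0.82, SE 0.052, adjusted p = 7.21e-08). Its dimmer probe set did not pass at -0.25 (adjusted p = 0.123). Egln2 (PHD1) went from 952, 927 and 935 to 1549, 1582 and 1478, a rise of 1.64-fold (log2 fold change 0.71, SE 0.054, adjusted p = 3.39e-07). Egln1 and Egln3 are themselves known targets of HIF, whereas Egln2 is not known to be induced by hypoxia.

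The other HIF targets included the largest rises of all members. Ddit4 (REDD1), an inhibitor of mTORC1 that hypoxia and other stresses induce, had a single probe set at 2686, 2885 and 2689.6 in mock and 7478, 7401 and 7481 in Nup98::Nsd1 cells. The Nup98::Nsd1 arrays lay close together and far above the mock arrays, a rise of 2.71-fold (log2 fold change 1.44, SE 0.043, adjusted p = 2.97e-10). Ndrg1, a stress-responsive gene linked to differentiation, went from 711, 656 and 663 to 1767, 1778 and 1780.0, a rise of 2.62-fold (log2 fold change 1.39, SE 0.057, adjusted p = 2.71e-09). It rose at 4 of 4 tested probe sets, by 0.77 to 1.39 on the log2 scale. Another Ndrg1 probe set, called Present on no array, read 320.4 to 329 in mock and 527 to 569.9 in Nup98::Nsd1 cells. Vegfa, the angiogenic growth factor, read 428, 386 and 384 and then 788, 824 and 845, a rise of 2.05-fold (log2 fold change 1.04, SE 0.078, adjusted p = 3.17e-07), with its second probe set at 0.59. These 3 genes, Arnt and Egln2 were the 5 other hypoxia genes that rose by at least 1.5-fold, as 22.5% of all tested genes did. Egln2 fell short of that size, though still called higher, with median centring (0.54) and hybridization control scaling (0.35), which left 4 genes, where 15.9% and 10.4% of all genes rose that much.

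The remaining targets did not pass at their brightest probe set. Bnip3, a mitophagy receptor that HIF is known to induce, was level at 1622, 1644 and 1653 in mock and 1654, 1547 and 1723 in Nup98::Nsd1 cells (adjusted p of 1). With median centring and hybridization control scaling it stood at -0.17 and -0.37, past the threshold. Its relative Bnip3l was read only with its pseudogene, by 3 probe sets at 0.03 (adjusted p = 0.671), -0.03 (adjusted p = 0.525) and -0.45 (adjusted p = 0.000112). P4ha1, a collagen prolyl hydroxylase subunit, had overlapping groups at the brighter probe set, at 586, 494 and 596 in mock and 523, 529.8 and 474 in Nup98::Nsd1 cells (log2 fold change -0.13, adjusted p = 0.226). The other P4ha1 probe set fell from 623, 527 and 584 to 332, 353 and 332 (log2 fold change -0.77, SE 0.091, adjusted p = 1.44e-05), and the mean of both was called lower, at -0.45 (adjusted p = 0.000496). P4ha1 was also called lower at the brighter probe set with quantile normalization (-0.31), median centring (-0.30) and hybridization control scaling (-0.50). Ankrd37, an ankyrin repeat gene, was dim, at 111, 146 and 152 in mock and 135, 89.6 and 89.9 in Nup98::Nsd1 cells (log2 fold change -0.39, adjusted p = 0.125), with a Nup98::Nsd1 array inside the mock range. Without that array, replicate 1, it was called lower (-0.59, adjusted p = 0.0339), as it was after quantile normalization (-0.80), median centring (-0.56) and hybridization control scaling (-0.76). Ankrd37 was Present on 3 mock and 2 Nup98::Nsd1 arrays, so with all arrays it was tested only through the group where it was higher.

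Counted by probe set, the classes kept the same order. Of 26 tested enzyme probe sets 15 fell and 1 rose, of 13 for transporters and flux regulators 7 fell and 4 rose, and of 23 for other hypoxia genes 7 fell and 10 rose. The 7 falls of transporters and flux regulators include the second Pfkfb3 probe set, tested only through the mock arrays, where it was high. Over all 20494 tested probe sets, 69.9% were called, 27.6% lower and 42.3% higher. Probe sets of a gene share its transcript and are not replicates. The average of all tested probe sets of each gene put the enzymes' median at -0.36. The brightest probe set had the smallest change in 3 of the 7 enzymes with several tested probe sets (42.9%), against 46.4% of all such genes.

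**Figure D4:**
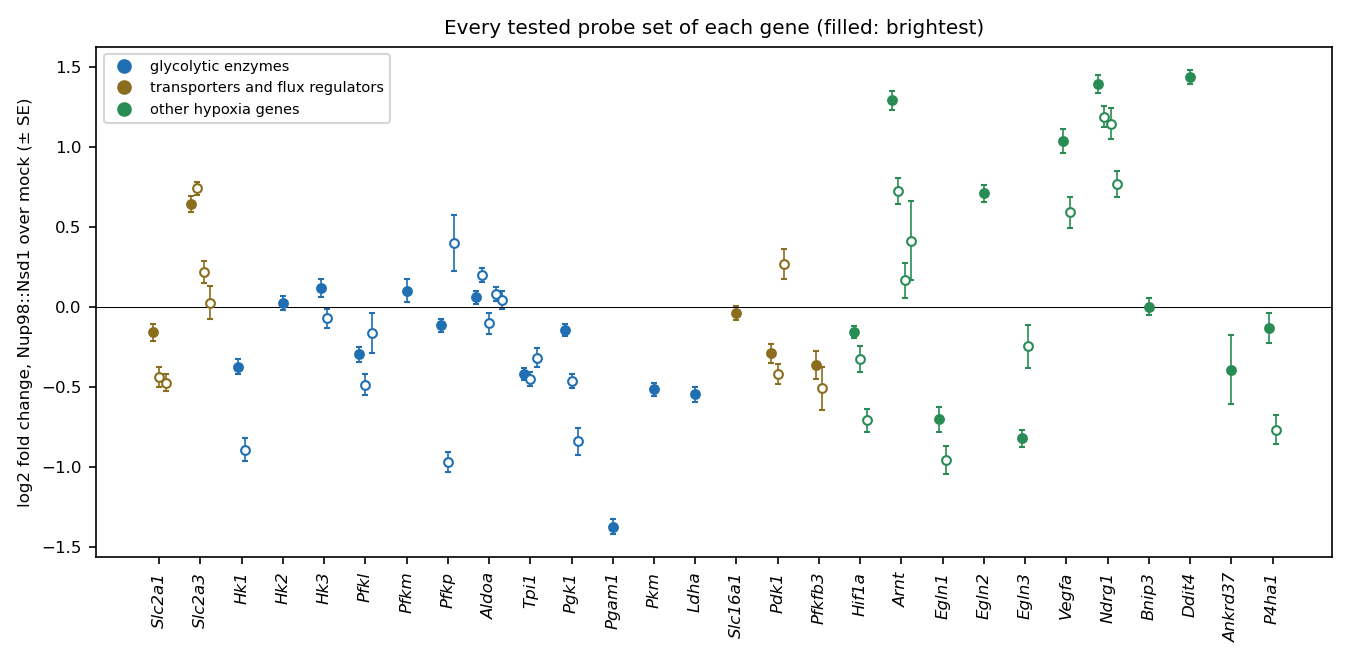
Log2 fold change with its standard error for each of the 62 tested probe sets, by gene in the order of the pathway and coloured by class, with the brightest probe set of a gene filled. Probe sets of Tpi1 lie together, those of Pfkp range from -0.97 to 0.40, and those of Pdk1 lie on both sides of 0.

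Genes around the pathway that are not among the 36 were read from further lists. Their counts stand against 42.9% of all tested genes higher and 29.5% lower in the fit as deposited, 31.9% and 39.1% with median centring, and 21.1% and 50.4% with hybridization control scaling. Of 16 other tested genes of glycolysis and glucose entry, 5 rose and 5 fell (31.2% each), the share that fell being near that of all genes. The 5 that rose include Hkdc1, Present on 1 mock and 3 Nup98::Nsd1 arrays. Hkdc1 was tested only through the group where it was high. The transporter gene Slc2a6 (GLUT6) rose 8.55-fold, from 289.6, 303 and 312 to 2706, 2335 and 2714 (log2 fold change 3.10, SE 0.074, adjusted p = 6.72e-11), a larger change than that of any tested member. Pfkfb4, a relative of Pfkfb3 that HIF is known to induce, rose 2.58-fold (adjusted p = 1.05e-06). Bsg, the chaperone of the lactate exporters, was 1.48-fold lower, and the phosphatase gene Minpp1 was 1.62-fold lower (adjusted p = 2.71e-06 and 1.79e-07).

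Of 9 tested pentose phosphate pathway genes, 5 fell (55.6%) and 2 rose (22.2%; 7 and 1 with hybridization control scaling, and 1 higher with median centring). The epimerase gene Rpe was 2.2-fold lower, the isomerase gene Rpia 1.4-fold and the dehydrogenase gene Pgd 1.38-fold lower, while Pgls, the lactonase, rose 1.42-fold (adjusted p = 1.78e-08, 6.92e-06, 5.61e-06 and 6.21e-07). Of 10 tested genes for pyruvate entry into mitochondria, 6 fell (60%) and 3 rose (30%; 7 and 1 with hybridization control scaling, and 1 higher also with median centring, without mock replicate 2 or Nup98::Nsd1 replicate 3). Of the pyruvate dehydrogenase complex, the E1 subunit Pdha1 rose 1.53-fold while the E2 and E3 genes Dlat and Dld were 1.79-fold and 1.3-fold lower, and the kinase Pdk3 was 1.61-fold lower (adjusted p = 7.67e-07, 8.26e-07, 1.74e-05 and 8.54e-08). Of 8 tested glycerol phosphate and glycogen genes, 3 fell (37.5%) and 1 rose (12.5%; 5 fell with hybridization control scaling, and 2 rose after quantile normalization or without Nup98::Nsd1 replicate 1). Gyg, the glycogenin that primes glycogen, rose 1.87-fold, while Gbe1, the branching enzyme, Ugp2, which makes UDP-glucose, and Gpd1l were 1.91-fold, 1.46-fold and 1.25-fold lower (adjusted p = 3.55e-08, 3.36e-05, 5.43e-07 and 0.000474).

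Of 9 other tested components of the HIF pathway, 4 rose (44.4%) and 3 fell (33.3%), shares near those of all genes (1 and 5 with hybridization control scaling, and 1 higher with median centring). The coactivator genes Ep300 and Crebbp rose 1.61-fold and 1.22-fold, the ubiquitin ligase gene Siah2 rose 1.21-fold, and Eloc, a subunit of the ligase that destroys Hif1a, was 1.34-fold lower (adjusted p = 2.9e-06, 0.000855, 0.00895 and 1.15e-05). The falls in this list numbered 1 without mock replicate 2, without Nup98::Nsd1 replicate 1 or with no intensity trend in the fit. Of 20 further tested genes that hypoxia is known to induce, 7 rose (35%) and 9 fell (45%; 3 and 10 with hybridization control scaling). The oxidase gene Ero1a rose 1.74-fold (adjusted p = 1.18e-08). Ankzf1, counted among the 7 that rose, was Present on 3 Nup98::Nsd1 and 0 mock arrays. It was tested only through the group where it was high, so its p-value and size of change are not given. The chemokine receptor gene Cxcr4 and the adenylate kinase gene Ak4 were 2.14-fold and 2.11-fold lower (adjusted p = 5.21e-08 and 1.48e-08). Genes of this kind outside the 36 also went both ways.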

How the data were processed

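Total RNA of each sample was hybridised as biotinylated cRNA to an Affymetrix Mouse430_2 array. Per the submitters' processing notes, the authors ran MAS5. Each deposited value is a scaled signal intensity on a linear scale, per the file headers. A detection p-value and a detection call (Present, Marginal or Absent) were deposited per the file headers. The scaling target of MAS5 was not given in the sources used here. Precision is limited by the number of arrays: over tested probe sets, replicates had a median log2 SD of 0.097 (mock) and 0.095 (Nup98::Nsd1).

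The 64 control probe sets were left out. Symbols came from the platform annotation, which can be old, updated by Entrez identifier from a RefSeq table; 34945 of 45037 probe sets had 1 symbol, 932 several and 9160 none. Signals under 1 were raised to 1 and taken to log2. Probe sets Present on all 3 arrays of a group (20494) were fitted with limma 3.58.1 in R 4.3.3, with an intensity trend, Benjamini-Hochberg adjustment over all of them and a threshold of 0.05, and the fit was tested on simulated data. The brightest tested probe set, by mean log2 signal, stood for its gene. A change of 1.5-fold was counted separately. The members and lists were chosen with earlier results of these data known. Array values were given for members past the threshold by 1.5-fold or more, for members with opposed probe sets and for the extremes of each role, and others were added after their values were seen; of each wider list up to 4 genes with the smallest p were named. Alternatives were a pseudocount of 16 or 64, other filters, scalings, weights and probe set rules, the deposited matrix of the series, a replicate block and leaving out each array.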

Additional observations from a re-analysis of the deposited data

How the results depend on the processing

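Of the 20 members called, 16 kept their call under each of the 19 alternatives, among them all 6 that rose; Slc2a1, Pfkp, Pgk1 and Hif1a did not. The cause of each change below was not tested, except that a filter changes which genes enter a median. Enzymes called higher numbered 1 after quantile normalization and with array quality weights, and 0 to 1 when an array was left out, with 7 to 8 lower. Other hypoxia genes called lower numbered 6 with median centring and 6 when scaled to hybridization controls. The enzymes' median was -0.13 with no filter on detection, -0.39 with median centring, -0.59 with hybridization control scaling and -0.36 over the mean of probe sets. The other hypoxia median was 0.36 among probe sets Present on all 6 arrays, -0.17 after median centring and -0.37 when scaled to hybridization controls, and ran from -0.036 to 0.042 when an array was left out. The difference of the medians was -0.13 with no filter, -0.58 among probe sets Present on all 6 arrays and -0.36 over the mean of probe sets, and ran from -0.26 to -0.18 when an array was left out.

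Members that changed sign were near 0. With median centring and hybridization control scaling in turn, Hk2 stood at -0.15 and -0.34, Hk3 at -0.054 and -0.25, Pfkm at -0.068 and -0.26, and Aldoa at -0.11 and -0.31. After quantile normalization Pfkm stood at -0.064, Pfkp at 0.011, Slc16a1 at 0.0031 and Bnip3 at 0.0013. Bnip3 stood at 2.65e-05 with a pseudocount of 64, at 0.013 with 75th percentile centring, and between 0.0020 and 0.042 without mock replicate 2, mock replicate 3 or Nup98::Nsd1 replicate 2. With the replicate number as a block, 8 enzymes were lower and 0 higher, 3 other hypoxia genes were lower and 5 higher, as without it. Deviations of same-numbered arrays correlated at -0.017, -0.011 and 0.021. No pairing by number was seen, but the labels do not say whether same-numbered arrays shared a culture or a day. Signal over background limits Aldoc, Eno2, Ldhb and Slc16a3, which were not tested.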
